A study of Mus musculus with 4 samples.

Results

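The genes described here are 9 members of the Notch signalling pathway, Notch1, Notch2, Hes1, Rbpj, Maml1, Adam10, Ncstn, Nrarp and Dtx4, out of 27998 genes in the files. They were found by symbol, and each had 1 row. The list was chosen by measured values of these same libraries: the rule looks at the difference between the labels in type H gate cells with Hlf transcripts and at its relation to cells with few transcripts. Values of those contrasts are therefore a description and carry no test. Hlf encodes a transcription factor of blood stem and progenitor cells.

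Single-cell RNA sequencing was done on mouse cells sorted as lineage-, CD31+, VE-cadherin+ and endomucin+, in 4 libraries with 1 library per group. Sca-1 divided the sort into a positive gate, labelled type H vessel, and a negative gate, labelled sinusoidal. In each gate a control library (ID1 +/+ ID3 +/-, called WT in the titles) was set beside a knockout library (ID1 -/- ID3 -/-). The mice of both groups carried Cdh5-CreER, a recombinase under an endothelial promoter, and per the labels tamoxifen was injected intraperitoneally on 5 consecutive days. The control therefore also lacks 1 Id3 allele, and the labels do not say how many mice were pooled. With 1 library per group no difference between the labels has a replicate check. Intervals are at 95% and hold counting error alone; they leave out the spread between cells, mice and libraries.

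After filtering, 806 type H control, 1857 type H labelled knockout, 351 sinusoidal control and 553 sinusoidal labelled knockout cells were kept, 3567 of 3641 barcodes. Median unique molecular identifiers (UMIs, each standing for 1 captured transcript) per cell were 6420, 5597, 6142 and 15428 in the same order. No more than 2 barcodes were shared by any pair of libraries, and 4 in all. The label check went against the labels for Id3. It was at 33.0 CPM (UMIs per 1000000 UMIs) in the type H control and 84.9 CPM in the type H labelled knockout. Whether a null allele still gives tags is not stated. Id1, the other deleted gene, was at 4.08 CPM (23 UMIs) and 2.99 CPM (33 UMIs), a ratio of 0.734 (0.418 to 1.31). In the sinusoidal gate it was at 26.1 CPM and 26.3 CPM. In type H cells without Hlf UMIs Id1 was at 9.06 CPM and 2.92 CPM, and in those with Hlf UMIs at 2.01 CPM and 3.02 CPM. The word knockout below therefore only names a library. Hlf UMIs were found in 557 control and 1280 labelled knockout cells of the type H gate, 69.1% and 68.9% of each, and in 15 and 33 sinusoidal cells. All 12 progenitor markers had UMIs in these type H Hlf cells of both libraries. Shares differed by marker, with Meis1 in 84.0% and 74.8% of cells and Cd48 in 4.31% and 4.69%. Of 12 endothelial markers 9 and 10 had UMIs, and of 9 granulocyte precursor markers 8 and 9. Such a count needs only 1 UMI over all cells, and the progenitor list holds Hlf, so these counts do not tell cell types apart. Cdh5, which encodes the VE-cadherin of the sort, was at 0 in both libraries, against the labelled cell type. Genes of the other sort antigens were seen: Emcn (endomucin) in 31.6% and 25.4% of cells, Pecam1 (CD31) in 23.7% and 22.03%. Ptprc, a gene of blood cells in general, had UMIs in 43.1% and 38.5% of these cells, and the progenitor marker Kit in 49.4% and 47.0%. The endothelial markers Kdr and Cldn5 had UMIs in 2.33% and 2.87% of control and 1.09% and 5% of labelled knockout cells. These markers therefore do not show the labelled cell type.

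Notch receptors are surface proteins that are cut when a ligand on a neighbouring cell pulls on them, first by the protease ADAM10 and then by gamma-secretase. The freed intracellular domain enters the nucleus, joins the DNA-binding protein RBPJ and a Mastermind coactivator, and switches on target genes that include Hes1 and Nrarp. In blood formation the pathway is known for driving T cell fate and for its part in the embryonic origin of blood stem cells. Notch1 and Notch2 are the receptors most studied in adult blood cells, and Nrarp limits the signal it is induced by.

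In the GENCODE annotation of GRCm38, the protein-coding Notch2 gene spans chr3:98013527-98150361, Hes1 chr16:30064384-30067796 and Nrarp chr2:25180758-25183339, all on the plus strand, and Dtx4 spans chr19:12466338-12501454 on the minus strand. RefSeq promoter windows (build GRCm38.p6, from 250 bases before to 50 after the start) were matched for 7 of 9 members, with 8 windows because Rbpj has 2 start sites. Hes1 and Dtx4 had no entry. Shown are the windows of Notch2 and Nrarp, the members with an entry whose level differed most between labels, and of Rbpj, the one member with a match to the RBPJ core motif TGGGAA (searched on both strands, so also as TTCCCA, in capitals). They lie on the plus strand at chr3:98013288-98013587, chr2:25180508-25180807 and chr5:53590096-53590395, and are written 5′ to 3′.
Notch2: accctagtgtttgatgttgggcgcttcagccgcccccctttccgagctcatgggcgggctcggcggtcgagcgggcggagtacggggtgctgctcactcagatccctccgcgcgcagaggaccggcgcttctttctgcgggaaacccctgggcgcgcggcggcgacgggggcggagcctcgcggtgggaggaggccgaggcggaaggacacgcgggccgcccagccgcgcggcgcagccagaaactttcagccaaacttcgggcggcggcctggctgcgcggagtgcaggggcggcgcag
Nrarp: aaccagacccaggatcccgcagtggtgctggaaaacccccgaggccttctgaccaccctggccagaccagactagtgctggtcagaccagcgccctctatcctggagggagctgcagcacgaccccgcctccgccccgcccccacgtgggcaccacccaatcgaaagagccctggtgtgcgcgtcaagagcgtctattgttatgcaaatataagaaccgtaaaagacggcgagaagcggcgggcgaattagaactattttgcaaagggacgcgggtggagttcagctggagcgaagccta
Rbpj: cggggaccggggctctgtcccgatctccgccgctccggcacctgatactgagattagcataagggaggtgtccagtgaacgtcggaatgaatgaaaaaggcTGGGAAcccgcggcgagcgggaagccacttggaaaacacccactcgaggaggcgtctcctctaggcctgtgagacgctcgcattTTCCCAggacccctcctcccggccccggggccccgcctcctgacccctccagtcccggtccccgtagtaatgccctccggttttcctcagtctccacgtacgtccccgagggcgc
In the Rbpj window the matches begin 149 and 65 bases before the start. The motif is in 25.6% of 32851 promoter windows of this length, so a match is frequent, and it is a description of letters only. The Notch2 window has 73.0% G and C and 41 CpG dinucleotides, and the Nrarp window has 60% and 21.

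Between the gates 2 of 9 members were higher in the type H control than in the sinusoidal control (Hes1 and Nrarp), beside 40.7% of 11290 genes, and Dtx4 was lower, beside 15.6%. Between the labelled knockout libraries Notch2, Hes1 and Nrarp were higher in type H, beside 45.6% of 12297 genes, and Dtx4 lower, beside 16.3%. Hes1, a repressor and direct Notch target, was at 10.8 CPM in the type H control and 20.5 CPM in the type H labelled knockout, against 1.89 CPM and 0.603 CPM in the sinusoidal libraries. In the control libraries the type H level was 5.73 times the sinusoidal one (2.49 to 16.2). Nrarp, a small ankyrin protein that dampens Notch signalling, had the same order, with 8.16 CPM and 13.7 CPM in the type H libraries and 3.46 CPM and 2.29 CPM in the sinusoidal ones. The control ratio between gates was 2.36 (1.20 to 5.05). Dtx4, a Deltex-family ubiquitin ligase, had the opposite order: 0.709 CPM and 2.54 CPM in type H, 12.6 CPM and 14.1 CPM in sinusoidal libraries. Its type H level in the controls was 0.0564 of the sinusoidal one (0.0147 to 0.156), from 4 and 40 UMIs.

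**Figure D1:**
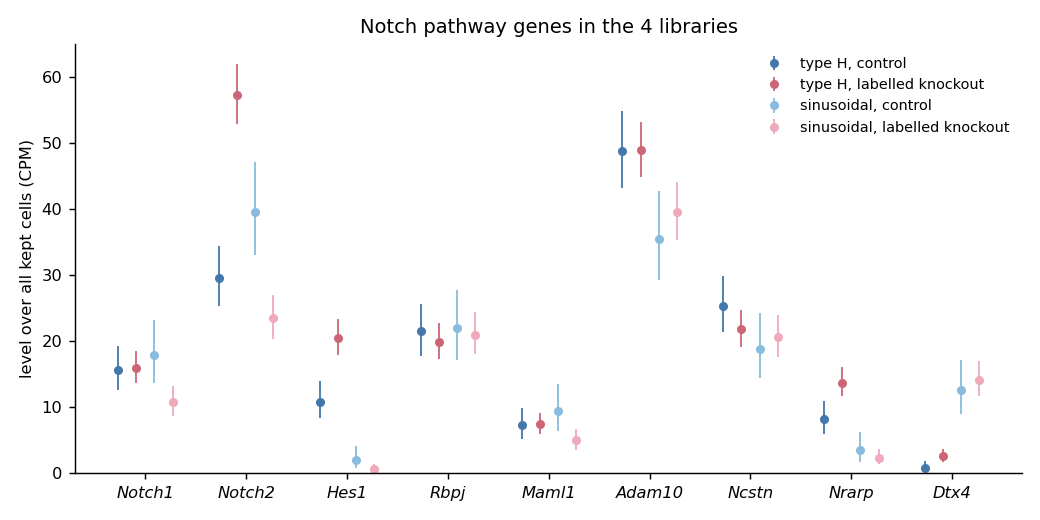
Level of each of the 9 genes over all kept cells of a library, in CPM, with exact 95% Poisson intervals; colours are the 4 libraries. Hes1 and Nrarp are low in both sinusoidal libraries and Dtx4 is low in both type H libraries, while Notch2 is highest in the type H labelled knockout at 57.3 CPM.

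Notch2, one of the receptors, differed between labels in both gates, in opposite directions. Its level was 29.6 CPM in the type H control and 57.3 CPM in the type H labelled knockout, a ratio of 1.94 (1.63 to 2.31). In the sinusoidal gate it was 39.6 CPM in control and 23.5 CPM in the labelled knockout, a ratio of 0.594 (0.472 to 0.749). The intervals of the ratios do not overlap, but each is a comparison of single libraries. Notch1, the other receptor among the members, was at 15.6 CPM and 15.97 CPM in type H and at 17.9 CPM and 10.7 CPM in sinusoidal cells. Over the type H gate 4 of 9 members were at least 1.5-fold higher in the labelled knockout (Notch2, Hes1, Nrarp and Dtx4), against 5.33% of 12243 genes with at least 20 UMIs. In the sinusoidal gate 0 of 8 members with enough UMIs were higher, against 8.43% of 10582 genes, and 4 were lower (Notch1, Notch2, Maml1 and Nrarp), against 16.8%. The sinusoidal labelled knockout has the deepest cells, and the gates hold different cells: granulocyte precursor-like cluster 8 had 0 and 1 type H cells but 46 and 147 sinusoidal ones. In the sinusoidal gate, monocyte-like clusters 10 and 13 held 110 and 42 of 351 control but 53 and 5 of 553 labelled knockout cells. Over the 4 libraries Notch2 was at 83.8 CPM and 105.3 CPM in them. Clusters 5 and 8 held 39 and 46 control and 213 and 147 labelled knockout cells, with Notch2 at 29.4 CPM and 13.5 CPM. Clusters 7 and 17, at 40.9 CPM and 38.3 CPM, went the other way, from 8 and 4 to 22 and 21 cells. The part of cell makeup in the sinusoidal difference was not tested.

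Hlf cells of the type H gate were then taken alone. The same 4 of 9 members were at least 1.5-fold higher in the labelled knockout, beside 5.48% of 11581 genes, and 0 were lower, beside 3%. The median log2 ratio was 0.04 over the 9 members and -0.04 over all genes. These members were chosen on this contrast, so the counts describe the choice and nothing is read from them.

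Among the receptors, Notch2 gave 130 UMIs in control and 480 in labelled knockout Hlf cells. That is 32.6 CPM (27.3 to 38.8) and 60.5 CPM (55.2 to 66.1), a ratio of 1.85 (1.52 to 2.27). The labelled knockout was higher and the intervals were apart. Notch1 gave 15.6 CPM (11.9 to 19.95) in control and 15.4 CPM (12.8 to 18.4) in the labelled knockout, a ratio of 0.987 (0.722 to 1.36). The receptors are set side by side here as chosen members of this contrast, with no test of the difference between them.

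The genes of the proteins that cut the receptor gave label ratios with intervals that include 1. Adam10, the protease of the first cut, was at 54.5 CPM (47.5 to 62.2) in control and 50.9 CPM (46.1 to 56.1) in the labelled knockout, a ratio of 0.934 (0.790 to 1.11). Ncstn encodes nicastrin, the subunit of gamma-secretase that receives the substrate. It was at 24.9 CPM and 20.03 CPM, a ratio of 0.806 (0.623 to 1.05), the lowest of the 9. An Ncstn UMI was seen in 16.7% (13.7% to 20.1%) of control and 11.1% (9.43% to 12.9%) of labelled knockout Hlf cells. These share intervals are apart, but the shares are not matched for depth. Ncstn lies over Copa on the opposite strand, and Copa gave 1555 UMIs over the 4 libraries; the labels do not say how the counting treated strand.

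The nuclear partners gave intervals that include a ratio of 1 as well. Rbpj, the DNA-binding partner, was at 20.8 CPM (16.6 to 25.8) in control and 19.0 CPM (16.1 to 22.3) in the labelled knockout, a ratio of 0.913 (0.694 to 1.21). Maml1, a Mastermind coactivator, was at 7.28 CPM and 7.56 CPM, a ratio of 1.04 (0.656 to 1.68). Its interval, from 29 and 60 UMIs, still allows a 1.5-fold difference.

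Among the members that are targets or regulators of the signal, Hes1 and Nrarp had higher levels in the labelled knockout and Dtx4 was undecided. Hes1 was at 13.3 CPM (9.97 to 17.4; 53 UMIs) in control and 22.8 CPM (19.6 to 26.4; 181 UMIs) in the labelled knockout, a ratio of 1.71 (1.26 to 2.37). Nrarp was at 8.54 CPM (5.91 to 11.9; 34 UMIs) and 16.6 CPM (13.9 to 19.7; 132 UMIs), a ratio of 1.95 (1.33 to 2.93). Neither pair of intervals overlaps, but they leave out the spread between cells. The shares of cells with a Hes1 UMI, 7.18% (5.18% to 9.65%) and 9.53% (7.98% to 11.3%), have overlapping intervals. So do those of Nrarp, 5.03% (3.37% to 7.18%) and 8.44% (6.97% to 10.1%). Dtx4 gave 3 UMIs in the control and 20 in the labelled knockout, or 0.753 CPM and 2.52 CPM. Its ratio of 3.35 has an interval of 0.992 to 17.6, so counting error alone leaves it undecided.

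Hlf cells of the labelled knockout were more often shallow. Below 3500 UMIs were 22 of 557 control cells, 3.95% (2.49% to 5.92%), and 200 of 1280 labelled knockout cells, 15.6% (13.7% to 17.7%). The shallow cells held 57041 UMIs in the control and 495678 in the labelled knockout. A member with 0 UMIs in the shallow control cells could still be at up to 52.6 CPM (3 counts of the total, the limit used for every sum of 0). For most members the shallow control cells therefore show nothing.

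Notch2 was far higher per UMI in shallow cells of both libraries. In the labelled knockout it was at 234 CPM (193 to 281; 116 UMIs) in shallow and 48.9 CPM (44.0 to 54.2; 364 UMIs) in deeper Hlf cells, a ratio of 4.78 (3.85 to 5.91). In the control it was at 210.4 CPM (108.7 to 367; 12 UMIs) and 30.1 CPM (24.9 to 36.0; 118 UMIs), a ratio of 7.0 (3.52 to 12.7). It was also higher per cell, not only per UMI. In the labelled knockout 100 shallow cells held 58.0 Notch2 UMIs and 100 deeper cells 33.7; in the control the values were 54.5 and 22.1. A Notch2 UMI was seen in 41.5% of shallow and 22.3% of deeper labelled knockout cells, although a shallow cell had a median of 2478 UMIs and a deeper one 6250.5. Thinned to 1500 UMIs per cell the shares were 29.8% and 7.44% in the labelled knockout, and 27.3% and 4.49% in the control, where 1 shallower cell was left out. In cells without any Hlf UMI the labelled knockout showed the same order, 171.9 CPM (136.1 to 214) below 3500 UMIs and 27.8 CPM (21.8 to 35.0) above. The corresponding control values were 45.1 CPM (12.3 to 115.4; 4 UMIs) and 21.1 CPM (14.5 to 29.6), with overlapping intervals.

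Within each library only Notch2 of the members was at least 1.5-fold higher in shallow cells. In the labelled knockout that was 1 of 9, beside 15.7% of 11063 genes, and 2 of 9 were lower (Notch1 and Dtx4), beside 15.5%. Notch1 was at 6.05 CPM (3 UMIs) in shallow and 15.99 CPM (119 UMIs) in deeper cells, a ratio of 0.379 (0.0770 to 1.13), and Dtx4 gave 0 and 20 UMIs. In the control it was 1 of 8, beside 34.3% of 9837 genes. All members but Notch2 and Adam10 summed to 0 in the 22 shallow control cells, where the limit of 52.6 CPM lies above their deeper levels, so they have no direction there. Hes1, Nrarp, Rbpj, Maml1, Adam10 and Ncstn had shallow over deep ratios from 0.786 to 1.29 in the labelled knockout, with intervals that all include 1.

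**Figure D2:**
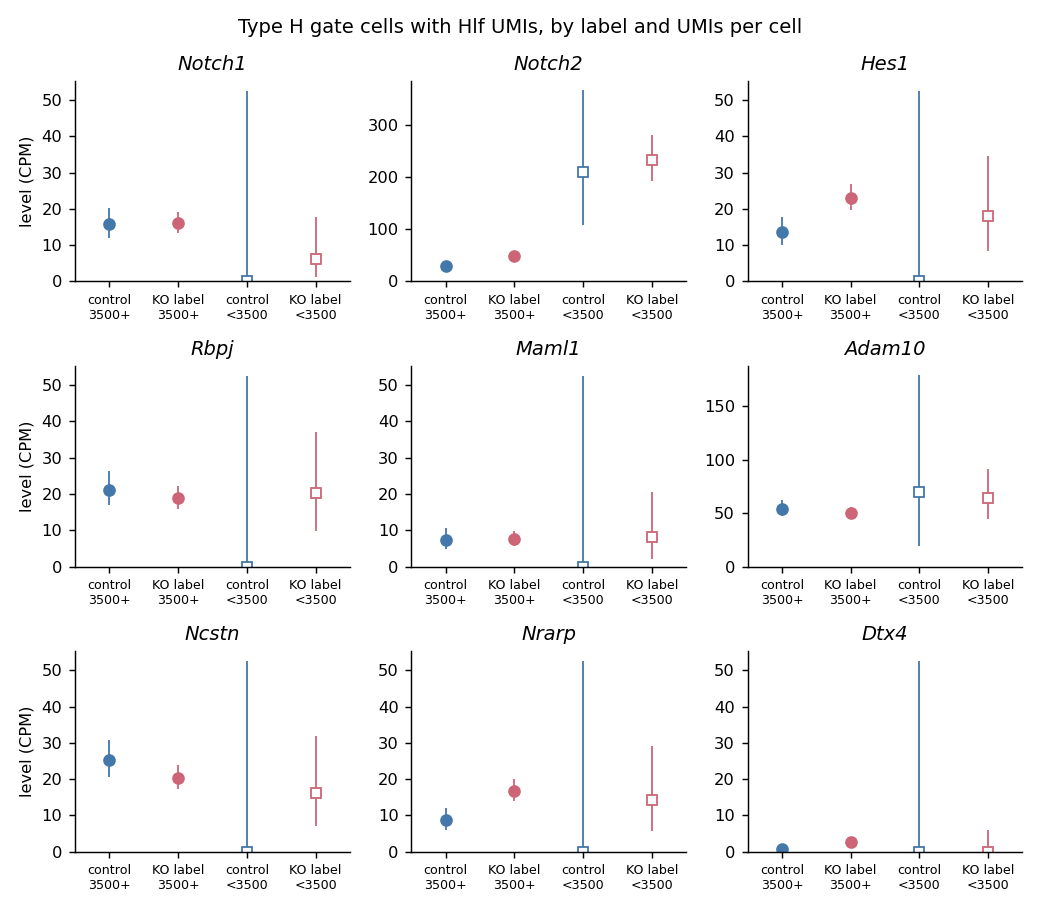
Level in CPM of each gene in type H gate cells with Hlf UMIs, for control and labelled knockout (KO label) cells with 3500 or more UMIs (filled) and below 3500 UMIs (open), with exact 95% Poisson intervals (a sum of 0 is drawn up to the limit of 3 counts). Notch2 is above 200 CPM in the shallow cells of both libraries and below 50 CPM in the deeper cells, while 7 genes have 0 UMIs in the 22 shallow control cells.

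With depth held, the Notch2 label ratio was smaller and those of Hes1 and Nrarp were nearly the same. Among cells with 3500 or more UMIs Notch2 was at 30.1 CPM in control and 48.9 CPM in the labelled knockout, a ratio of 1.63 (1.32 to 2.02). Among shallow cells it was at 210.4 CPM and 234 CPM, a ratio of 1.11 (0.613 to 2.22). Shallow cells gave 24.2% of the Notch2 UMIs of labelled knockout Hlf cells but 6.24% of all their UMIs, and 9.23% against 1.43% in the control. A common ratio over 8 depth bins was 1.47 (1.20 to 1.80) for Notch2. The same over 8 bins was 1.76 (1.29 to 2.45) for Hes1, 1.83 (1.24 to 2.77) for Nrarp and 3.94 (1.16 to 20.9) for Dtx4. In deeper cells the ratios were 1.71 (1.25 to 2.38) for Hes1, from 13.5 CPM and 23.1 CPM, and 1.94 (1.32 to 2.92) for Nrarp, from 8.66 CPM and 16.8 CPM. The deeper cells had the same 4 of 9 members past 1.5-fold, beside 5.25% of 11515 genes, and 0 of 9 lower, beside 2.96%. In shallow cells only Notch2 and Adam10 reached 20 UMIs over both libraries, and 0 of 2 were higher, beside 16.1% of 3837 genes, or lower, beside 24.6%.

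**Figure D3:**
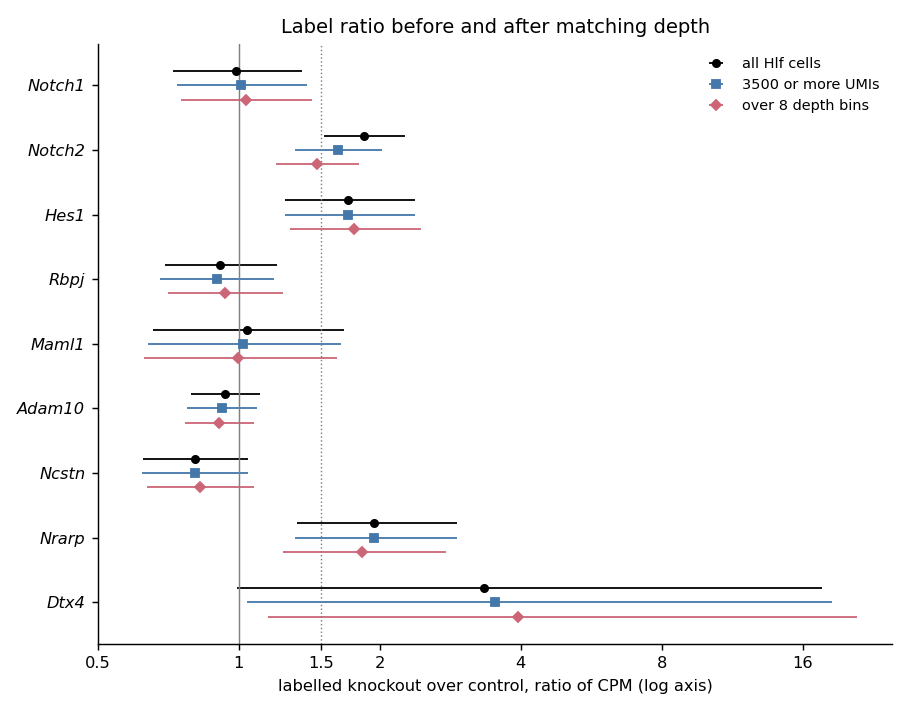
Ratio of CPM, labelled knockout over control, on a log axis for the 9 genes in type H Hlf cells: all cells, cells with 3500 or more UMIs, and the common ratio over 8 depth bins, with exact 95% intervals and a dotted line at 1.5. Notch2 moves from 1.85 to 1.63 to 1.47, while Hes1 stays at 1.71, 1.71 and 1.76.

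The Notch2 level was lower in each deeper range up to 5500 UMIs, with no step at 3500. In the labelled knockout it was 273 CPM below 2500 UMIs, 204 CPM from 2500 to below 3500, 99.5 CPM from there to below 4500 and 62.6 CPM from there to below 5500. At 10000 UMIs or more it was 26.4 CPM. In the control the same ranges gave 414 CPM (7 UMIs), 124.5 CPM (5 UMIs), 68.4 CPM, 32.6 CPM and 22.4 CPM. Just outside the threshold, from 3000 to below 3500 UMIs, Notch2 was at 153 CPM (4 UMIs) in control and 147 CPM (19 UMIs) in the labelled knockout. Just inside, from 3500 to below 4000, it was at 113 CPM (5 UMIs) and 164 CPM (43 UMIs). The label ratio by range went from 0.659 (0.301 to 1.71) below 2500 UMIs to 2.41 (1.502 to 4.05) from 6500 to below 8000, and was 1.18 (0.679 to 2.12) at 10000 or more. The lowest and highest of these intervals overlap, so a difference between ranges is not shown.

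Hes1 and, in the labelled knockout, Nrarp did not fall from range to range in this way. Hes1 in the labelled knockout lay between 9.79 CPM and 39.1 CPM over the 8 ranges, with its highest value from 5500 to below 6500 UMIs, where the control was at 10.7 CPM (ratio 3.66, 1.73 to 8.91). From 6500 to below 8000 UMIs Hes1 was at 25.9 CPM in the labelled knockout and 26.2 CPM in control cells, a ratio of 0.988 (0.597 to 1.68). These neighbouring ranges were picked for their values among 8, and no difference between them was tested. Nrarp in the labelled knockout lay between 7.15 CPM and 23.1 CPM. In the control it was lower in deeper ranges, on few UMIs: 31.6 CPM (6 UMIs) from 3500 to below 4500, 18.6 CPM (8 UMIs) from there to below 5500, 2.67 CPM (2 UMIs) to below 6500, 6.55 CPM (6 UMIs) to below 8000, 4.01 CPM (3 UMIs) to below 10000 and 10.1 CPM (9 UMIs) above. Its label ratio in the first 4 of those ranges was 0.723 (0.261 to 2.30), 0.776 (0.309 to 2.11), 5.69 (1.39 to 50.1) and 2.87 (1.20 to 8.31).

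**Figure D4:**
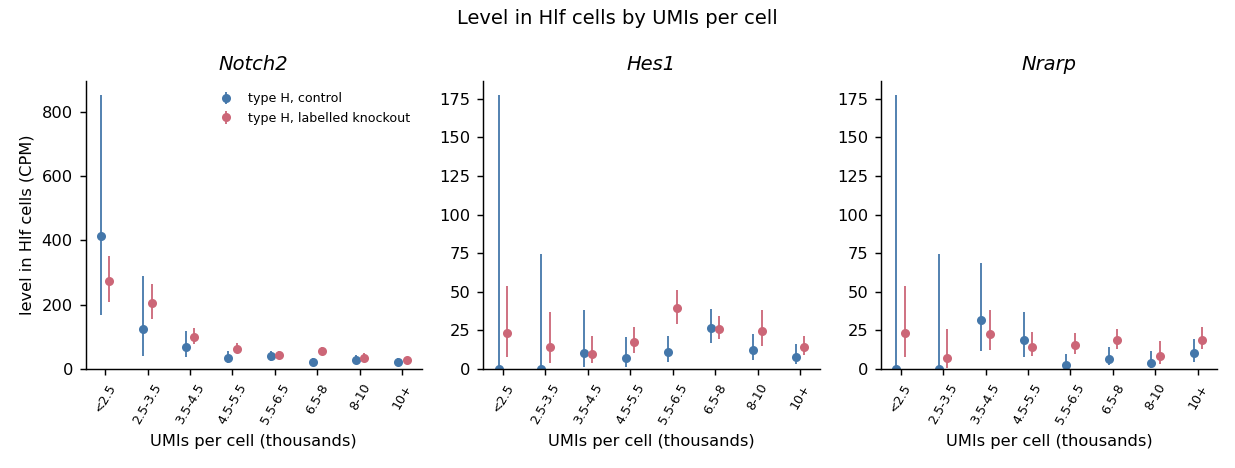
Level in CPM of Notch2, Hes1 and Nrarp in type H Hlf cells in 8 ranges of UMIs per cell, by library, with exact 95% Poisson intervals and sums of 0 drawn up to 3 counts. Notch2 is lower in deeper cells of both libraries, from 273 CPM to 26.4 CPM in the labelled knockout, while Hes1 has no such slope. Control Nrarp rests on few UMIs. It is at 31.6 CPM (6 UMIs) from 3500 to below 4500 UMIs, 4.01 CPM (3 UMIs) from 8000 to below 10000 and 10.1 CPM (9 UMIs) above.

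Other measures moved with depth. Malat1, a nuclear RNA, was at 16129 CPM in shallow and 12209 CPM in deeper control cells, and at 21578.5 CPM and 13567 CPM in the labelled knockout. Kdm6b, a histone demethylase gene, was at 87.7 CPM (5 UMIs) and 30.8 CPM in control and at 179.6 CPM and 54.0 CPM in the labelled knockout. Median mitochondrial shares were 4.35% and 3.54% in the control, and 4.18% and 3.54% in the labelled knockout, shallow before deeper. Of the 12 progenitor markers, 10 had UMIs in the shallow control cells and 12 in those of the labelled knockout, with sums of 2191 CPM and 2518 CPM. Their sums in deeper cells were 2144 CPM and 2127 CPM. Those sums hold Hlf, on which the cells were chosen. The 11 other markers summed to 1420 CPM in shallow and 1771 CPM in deeper control cells, and to 1765 CPM and 1748 CPM in the labelled knockout. The part of RNA quality in the Notch2 gradient was not tested.

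Single cells carried few UMIs of each member, and Hes1 was the most unevenly spread. In labelled knockout Hlf cells 122 cells (9.53%) had a Hes1 UMI, 14 had 3 or more, and these 14 held 32.6% of its UMIs, up to 8 in a cell. In the control 40 cells (7.18%) had one and 3 cells held 18.9%. The variance over mean of Hes1 UMIs per cell was 2.24 and 1.59, against 1.54 and 1.52 for Notch2. Cells with at least 5% immunoglobulin UMIs served as a gauge (107 control and 143 labelled knockout cells, median 7113 and 7532 UMIs). Of these, 99 and 123 had no Hlf UMI. Their UMIs can be free RNA or transcripts of their own. Overlap with the gauge therefore does not show that a member is free RNA. A Notch2 UMI was seen in 1.87% and 9.79% of them, against 17.2% and 25.3% of Hlf cells with medians of 6499 and 5836 UMIs, with intervals apart in both libraries. For Nrarp the gauge gave 0.935% and 0.699%, against 5.03% and 8.44%, with intervals that overlap in the control only. For Hes1 it gave 3.74% and 5.59%, and the intervals overlap those of the Hlf cells. The Hes1 share is therefore not read as above the gauge, and the Hes1 level in the gauge itself differed by label, 5.07 CPM (4 UMIs) and 16.7 CPM (19 UMIs), a ratio of 3.30 (1.10 to 13.3). Over the 9 members the Hlf cells were above the gauge for 1 in the control and 2 in the labelled knockout, and intervals overlapped for 8 and 6. Ncstn was seen in fewer Hlf than gauge cells, 11.1% against 21.0% in the labelled knockout. Share intervals of Notch1, Rbpj, Maml1, Adam10 and Dtx4 overlapped the gauge in both libraries, so none is read as particular to Hlf cells. Per UMI Adam10 was nonetheless higher in Hlf cells, with intervals apart in both libraries. It was at 54.5 CPM against 26.6 CPM (16.5 to 40.7) in the control. The labelled knockout had 50.9 CPM against 28.2 CPM (19.3 to 39.8). Immunoglobulin UMIs, at a median of 19.7% and 12.9% per gauge cell, lower the gauge CPM.

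The Hes1 difference was not the same in cells that differed in sex-linked transcripts. The control library had more Xist, 381 CPM against 172 CPM in Hlf cells. Both libraries held Xist-positive as well as Y-linked-positive cells, in different shares. In Y-linked Hlf cells, those with a UMI of a Y gene but none of Xist (304 control and 708 labelled knockout cells) Hes1 was at 10.1 CPM (23 UMIs) and 28.7 CPM (136 UMIs), a ratio of 2.86 (1.83 to 4.66). In Xist Hlf cells, with Xist but without a Y gene UMI (107 and 86 cells) it was at 22.3 CPM (17 UMIs) and 16.3 CPM (9 UMIs), a ratio of 0.730 (0.287 to 1.73). Those intervals do not overlap, and with so few UMIs in the Xist cells the difference rests on 26 counts. Id3 also differed between these cells within the control: it was at 2.63 CPM (2 UMIs) in Xist and 39.4 CPM (90 UMIs) in Y-linked cells, against 92.4 CPM and 88.4 CPM in the labelled knockout. Its part in the Hes1 values was not tested. Notch2 gave 1.73 (1.32 to 2.29) in the Y-linked and 1.26 (0.663 to 2.38) in the Xist cells, which overlap. Nrarp gave 2.23 (1.33 to 3.94) in the Y-linked cells and only 10 UMIs in the Xist cells.

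Type H cells without Hlf UMIs lie outside the rule that chose the members, but they come from the same libraries and are no separate check. Some can be progenitors, since 74.0% of cells in progenitor-like cluster 1 had an Hlf UMI and the rest had none. The cells without Hlf differed between the labels in their makeup and depth. At least 5% of UMIs were immunoglobulin in 99 of 249 control and 123 of 577 labelled knockout cells, and plasma cell markers summed to 91842 CPM and 48234 CPM. Notch2 was at 22.4 CPM in control and 49.3 CPM in the labelled knockout, a ratio of 2.20 (1.53 to 3.25), and Hes1 at 4.83 CPM (8 UMIs) and 14.6 CPM (45 UMIs), a ratio of 3.02 (1.41 to 7.41). Nrarp was at 7.25 CPM and 6.16 CPM, a ratio of 0.849 (0.391 to 1.92). The Nrarp interval overlaps that of Hlf cells, so a difference between the cell groups is not shown. Of these cells 190 of 577 were shallow in the labelled knockout and 35 of 249 in the control. With 3500 or more UMIs the Notch2 ratio was 1.32 (0.863 to 2.06), from 21.1 CPM and 27.8 CPM, and the Hes1 ratio 3.07 (1.35 to 8.17). With the immunoglobulin cells left out it was 1.73 (1.19 to 2.59) for Notch2 and 3.06 (1.07 to 11.99) for Hes1. With both restrictions Notch2 was at 36.1 CPM and 35.8 CPM, a ratio of 0.991 (0.633 to 1.58). Hes1 was then at 4.66 CPM (1.27 to 11.9; 4 UMIs) and 11.7 CPM (7.17 to 18.1; 20 UMIs), and these intervals overlap. Of 8 members with enough UMIs Notch2 and Hes1 were at least 1.5-fold higher over all cells without Hlf, beside 11.9% of 10153 genes, and 0 were lower, beside 5.31%.

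Other genes of the pathway mostly did not differ by 1.5-fold. Of 59 listed genes 48 had at least 20 UMIs in Hlf cells of both libraries together, 4 were higher in the labelled knockout, 2 were lower and 42 lay between, with a median log2 ratio of -0.05. That is 8.33% and 4.17%, beside 5.48% and 3% of all 11581 genes. The higher genes were the ligands Dll4 (1.004 CPM and 2.02 CPM, control first) and Jag2 (1.76 CPM and 3.02 CPM), the fucosyltransferase gene Pofut1 (16.8 CPM and 26.1 CPM) and Numb (4.52 CPM and 7.68 CPM), whose product promotes receptor turnover. Of these only the Pofut1 ratio of 1.55 (1.17 to 2.07) had an interval above 1. The lower genes were Dlk1, a Delta-like protein gene, with 4.27 CPM and 2.39 CPM, and Aph1b, a gamma-secretase subunit gene, with 6.53 CPM and 3.91 CPM; both intervals include 1. All 7 listed nuclear complex genes and all 10 repressors lay between. Of the 10 other targets 4 were measured, Hes5, Hes6, Myc and Gata3, and none passed 1.5-fold; Hey2 and Heyl gave 0 UMIs. In deeper cells 3 of 47 were higher and 2 lower, beside 5.25% and 2.96% of all genes. Within the labelled knockout 10 of 45 were higher and 8 lower in shallow than in deeper cells, beside 15.7% and 15.5%.

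Clustering of all 3567 cells gave 20 clusters, of which 16 could be named from marker lists. The clusters were made with these genes among all others, so their levels are a description. Notch2 was highest in progenitor-like cluster 1, at 243 CPM (219 to 268), and was among its leading genes. That cluster held 43 control and 386 labelled knockout type H cells, 5.33% and 20.8% of each library, with a median of 2969.5 UMIs. The next level was 105.3 CPM (60.2 to 171) in monocyte-like cluster 13, which does not overlap; further neighbours in the order overlapped. The other progenitor-like clusters 2, 6 and 9 were at 33.7 CPM, 28.5 CPM and 30.4 CPM, and overlapped each other. Hes1 was at 34.1 CPM (26.8 to 42.9) in unnamed cluster 3, led by Sult1a1 and Trim47, and at 14.7 CPM (9.29 to 21.98) in cluster 1. It gave 0 UMIs in both granulocyte precursor-like clusters, which allows up to 0.902 CPM and 2.39 CPM. Nrarp was at 76.5 CPM (28.1 to 166.6; 6 UMIs) in T and NK-like cluster 19 of 20 cells and at 23.1 CPM in cluster 3. Dtx4 was highest in granulocyte precursor-like cluster 8 at 20.1 CPM (15.6 to 25.6) and gave 0 UMIs in cluster 1. Notch1 was highest in plasmacytoid dendritic-like cluster 12, at 78.8 CPM.

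**Figure D5:**
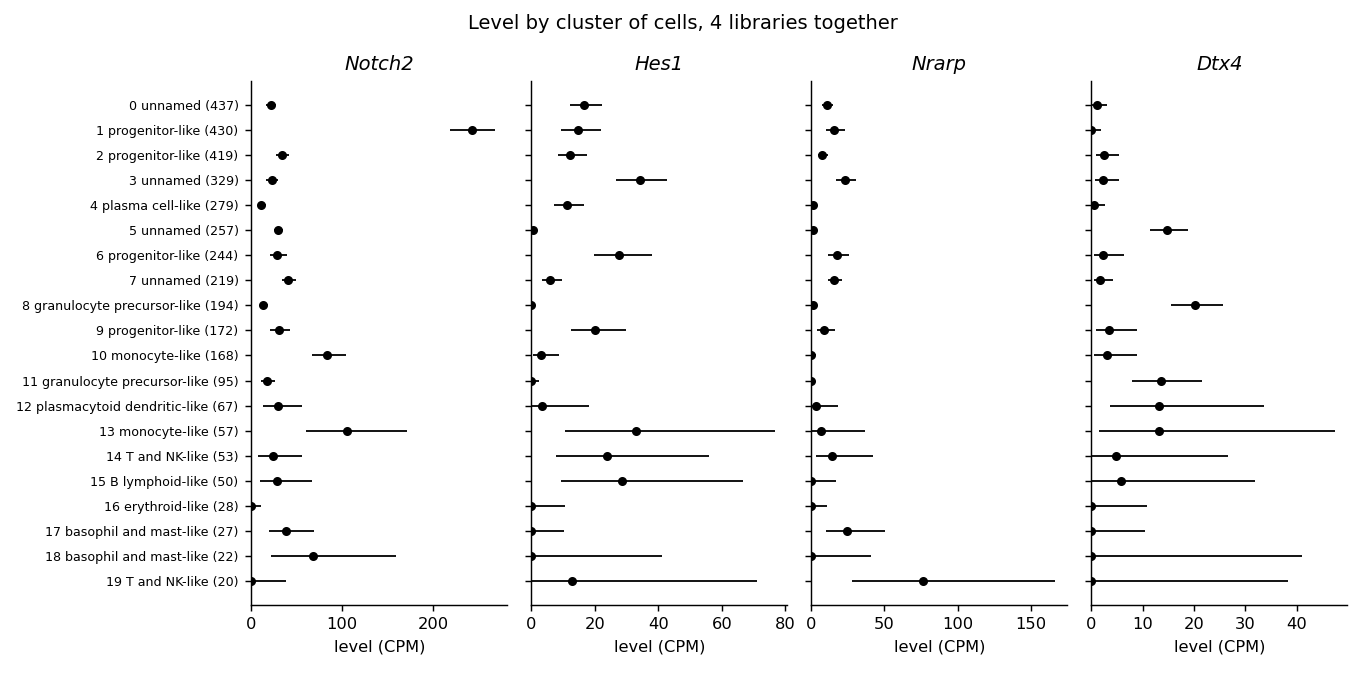
Level in CPM of 4 genes in each of 20 clusters of the 4 libraries together, with exact 95% Poisson intervals and sums of 0 drawn up to 3 counts; cell numbers are in parentheses. Notch2 stands at 243 CPM in progenitor-like cluster 1, and Hes1 and Nrarp are at 34.1 CPM and 23.1 CPM in unnamed cluster 3. Nrarp is higher in clusters 17 and 19, on 7 and 6 UMIs. Most Dtx4 UMIs are in clusters 5, 8 and 11 (67, 67 and 17 UMIs). Clusters 12 and 13 reach 13.1 CPM and 13.2 CPM on 4 and 2 UMIs, near the 13.5 CPM of cluster 11.

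Over the 8 strata formed by 2 type H libraries and 4 depth ranges, 8740 genes with at least 100 UMIs were compared with Notch2 and Hes1 by the correlation of log2(CPM + 10). The strata of a library share that library, and depth orders them, so this is a description. The 5 genes most like Notch2 were Tacc1 (r = 0.994), Zscan26 (0.989), Insig1 (0.983), Impact (0.982) and Pdcd4 (0.982). Each of the 5 was higher in shallow than in deep strata, for example Pdcd4 at 227 CPM below 2500 UMIs and 79.3 CPM at 7000 or more in the labelled knockout. The 5 most like Hes1 were Fbxo30 (0.993), Snrpn (0.993), Csf2ra (0.991), Hk2 (0.990) and Gm10419 (0.986), each at 0 in both shallow control strata, as Hes1 was. Those 2 strata together hold 22 cells, and their zeros enter the correlation as measured values although the limit there is 178 CPM and 74.7 CPM. Over the 6 other strata 0 of the 5 genes named for Notch2 and 1 of the 5 named for Hes1 (Csf2ra) were still among the 5 closest. The r of the genes named for Notch2 was then still 0.978 to 0.991, and that of the genes named for Hes1 was 0.889 to 0.942.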

How the data were processed

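The deposited matrices give UMI counts as whole numbers, not normalized, for each gene in each barcode, per the file headers and their values. Cell Ranger, Seurat and mm10 appear in the submitters' processing notes; no version was named in the sources used here. Capture was on the 10x Chromium, per the labels. Reads of that assay lie at transcript ends, so levels are not ranked between genes. The members and lists were chosen with earlier results of these data known, and named genes followed a rule: all members, other pathway genes past 1.5-fold (up to 8), and the 5 genes most like Notch2 and Hes1.

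A cell was kept with 200 or more genes and a mitochondrial share below 10%. Counts were summed per library and cell set and scaled to CPM, with exact Poisson intervals. Shares have Clopper-Pearson intervals, and ratios of sums and common ratios over depth ranges have intervals conditional on the totals; the confidence level is 95%. PCR and capture errors are not covered. Kept cells held 5638299, 11023619, 3179782 and 8290424 UMIs (type H control, type H labelled knockout, sinusoidal control, sinusoidal labelled knockout). A gene counted as higher or lower past 1.5-fold with 0.5 UMIs added to each sum, among genes with at least 20 UMIs. No p-value was made. Shares at 1500 UMIs are expected values under thinning. Clustering used Python 3.11.15, scanpy 1.11.5 and leidenalg 0.10.2 (10000 UMIs per cell, 2000 variable genes, 30 components, 15 neighbours, resolution 1). A cluster name needed 3 raised markers and no other list with more genes among the 10 leading genes, which left clusters 0, 3, 5 and 7 unnamed (0, 3 and 7 had most raised markers from the progenitor list). No doublet caller was run; cells above 20000 UMIs or with both Xist and Y-linked UMIs were left out in an alternative. Scripts were tested on simulated data. Alternatives changed the filter, the scaling, the Hlf cells, the split, the depth adjustment and the sex-linked subset; the common ratios, the deeper sex-linked subsets, the subsets of cells without Hlf and the likeness over 6 strata were added after seeing the data.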

Additional observations from a re-analysis of the deposited data

Results flagged for a closer look

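Notch2 had opposite label ratios in the gates: 1.94 in the type H gate and 0.594 in the sinusoidal gate, which differ by 3.26 times. Each ratio compares 1 library with 1 library, and the difference was not tested over samples. The sinusoidal libraries also differed in cell makeup. Monocyte-like clusters 10 and 13, where Notch2 was at 83.8 CPM and 105.3 CPM, held fewer cells in the labelled knockout. The part of cell makeup was not tested. Hes1 in type H Hlf cells had a label ratio of 2.86 in cells with a Y-linked but no Xist UMI and 0.730 in cells with an Xist but no Y-linked UMI, which differ by 3.92 times. This difference was not tested either, and the Xist cells gave 9 and 17 UMIs.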

How the results depend on the processing

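No paired analysis was possible because each group is 1 library and the labels give no replicate numbers, and leaving out a replicate was not possible for the same reason. The count of 4 members past 1.5-fold in Hlf cells went to 0 in cells with an Xist but no Y-linked UMI, also with 3500 or more UMIs (0), where Notch1, Maml1, Nrarp and Dtx4 had under 20 UMIs; Notch1 was at 2.30 in those Xist cells, and Hes1 was reversed there, at 0.730 and 0.775. Notch2 was at 1.26 in the Xist cells and at 1.08 in the deeper ones. Of 15 alternatives for its ratio in all Hlf cells, 11 gave at least 1.5-fold, in a range of 1.26 to 2.05; standardised over 2 strata it was 1.497, over 4 depth ranges 1.39, and as a common ratio over 8 ranges 1.47. In cells of 5000 UMIs or more it was 1.49. Among alternatives with at least 20 UMIs Nrarp was past 1.5-fold in 14 of 14, Dtx4 in 11 of 11 and Hes1 in 14 of 15; over all 15 their ratios ranged from 1.68 to 2.23, from 1.97 to 4.85 and from 0.730 to 2.86. The members counted as higher in shallow cells went from 1 to 2 in the labelled knockout with the split at 2500 UMIs, and in the control from 1 to 6 at 2500 and to 3 at 5000. At 2500 the control has 9 shallow cells, where only Notch2 and Adam10 of the members had UMIs, so the 0.5 added UMIs make the other calls. The Notch2 ratio of shallow to deep cells at 5000 was 3.32 (labelled knockout) and 2.46 (control), and at 2500 it was 13.4 in the control. With a minimum of 50 UMIs the other pathway genes counted as higher went from 4 to 2 and those lower from 2 to 1, since fewer genes were tested. Shallow control cells, with 57041 UMIs, limit every comparison below 3500.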
